A study of Mus musculus with 12 samples.

Results

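The 10 genes described here slow or stop the cell division cycle and were followed in RNA bound to tagged ribosomes of the mouse retina. They are the 3 Cip/Kip inhibitors of cyclin-dependent kinases (Cdkn1a, Cdkn1b and Cdkn1c), the 4 Ink4 inhibitors (Cdkn2a, Cdkn2b, Cdkn2c and Cdkn2d) and the 3 Gadd45 genes (Gadd45a, Gadd45b and Gadd45g). The rows carrying these symbols were taken from every library, 10 of 53090 gene rows, and each symbol had 1 row. All libraries came from retinas of C57BL/6 mice that received tamoxifen on postnatal days 1 and 2, and RNA was recovered by immunoprecipitation through an HA tag. The labels call the cells retinal pericytes, the mural cells wrapped around capillaries. 6 libraries were made on postnatal day 3 (P3) and 6 on day 9 (P9). The sources used here name neither the line that carries the tag nor the driver that switches it on, and they do not say if a library pools animals or if each library had its own. The p-values therefore describe only how these libraries varied, and part of that may be technical. The interval from tamoxifen to harvest was longer at P9 and cannot be told apart from age. The series was designed to find signatures of mural cells at both ages, and P9 against P3 is its comparison.

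A cell passes from growth into DNA synthesis when D-type cyclins with Cdk4 or Cdk6, and then E-type cyclins with Cdk2, phosphorylate the retinoblastoma protein and free E2F transcription factors. Ink4 proteins bind Cdk4 and Cdk6 alone and block their pairing with D cyclins, whereas Cip/Kip proteins bind cyclin-kinase complexes and inhibit Cdk2 above all. Gadd45 proteins are small acidic stress proteins that bind PCNA and the mitotic kinase Cdk1 and activate the kinase Map3k4. In the developing retina, progenitors leave the cycle with rising Cip/Kip and Ink4 inhibitors, and vessel cells slow their division as the plexus matures.

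The libraries held 26839599 to 37776172 expected counts, so that 1 CPM (a depth-scaled count, corrected by TMM factors) rested on 25.8 to 38.5 counts. The closest libraries were P9 replicates 5 and 6 (correlation of log2 CPM 0.974) and P3 replicates 4 and 5 (0.970), and both pairs differed by more than counting noise (chi-square per gene 16.5 and 22.2). Of 13 pericyte markers 12 rose and 1 did not pass, and their summed CPM ran from 367 to 1351 at P3 and from 2848 to 6392 at P9. Rgs5, a regulator of G-protein signalling, averaged 395 CPM at P3 and 2698 at P9, and Pdgfrb, the PDGF receptor of pericytes, 116 and 698. Other retinal cells were present as well, as the marker lists given further on show, and no list had a marker at 0 in every library.

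Between P3 and P9, 4 of the 10 genes fell and 1 rose, while 5 did not pass. Gadd45g fell furthest, 5.85-fold, followed by Cdkn2c (3.69-fold), Cdkn1b (1.90-fold) and Cdkn1c (1.52-fold). Cdkn2a rose 2.76-fold from a level under 1 CPM. All 10 passed the filter on low counts and were tested in edgeR's quasi-likelihood fit of 18638 genes, with Benjamini-Hochberg adjustment over all of them and a threshold of 0.05. In that fit 51.8% of all genes were called, 26.1% higher and 25.6% lower at P9, so a share of 5 in 10 lies near the background. At least 2-fold lower were 2 of the 10, Cdkn2c and Gadd45g, and 8.01% of all genes. The values of the ages did not overlap for 3 of the 10 genes, against 31.7% of all tested genes. The median log2 fold change of the 10 genes was 0.32, and that of all tested genes was -0.0018. In bulk RNA of this kind, fewer cells of a type and less RNA per cell cannot be told apart.

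**Figure D1:**
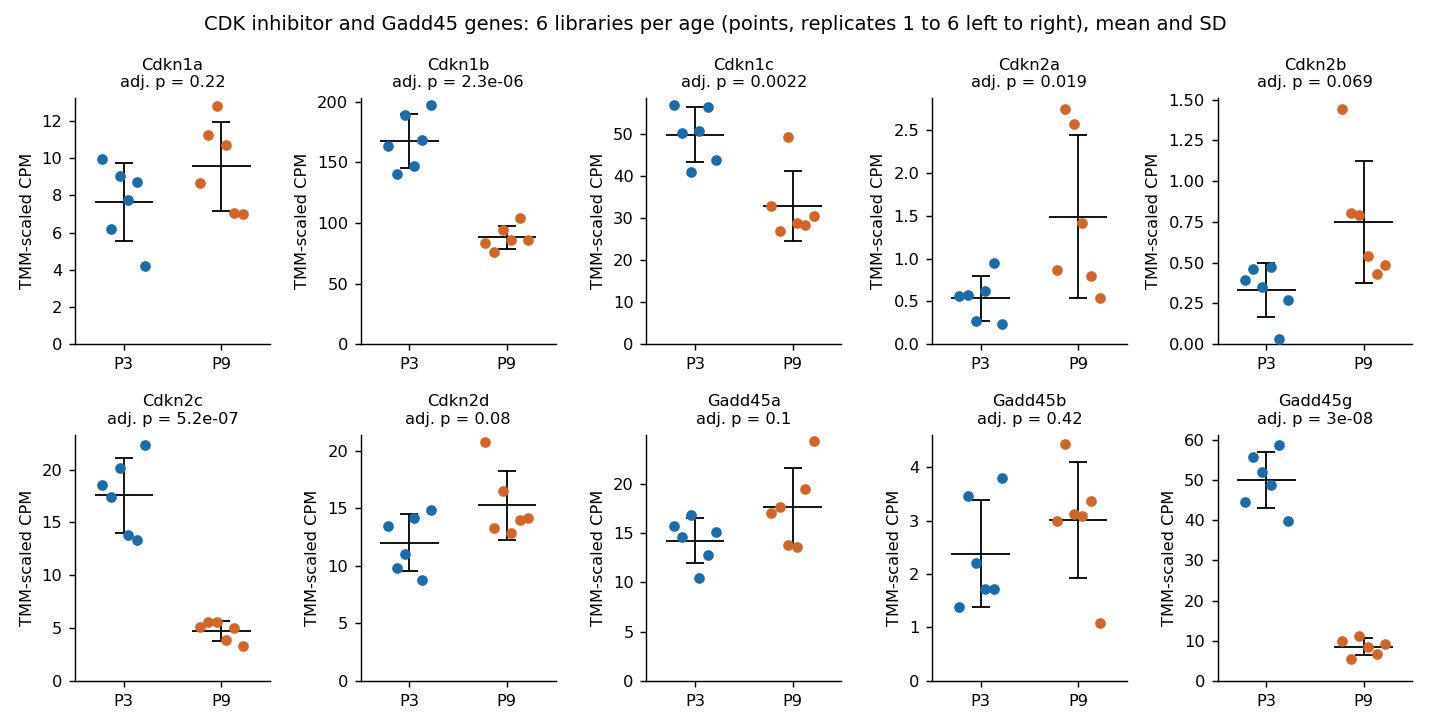
CPM of each of the 10 genes (vertical axes, each starting at 0) in the 6 libraries of P3 and the 6 of P9 (points, replicates 1 to 6 from left to right), with mean and SD as bars and the edgeR adjusted p above each panel. The points of the ages separate fully for Cdkn1b, Cdkn2c and Gadd45g and overlap for the other genes.

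**Figure D2:**
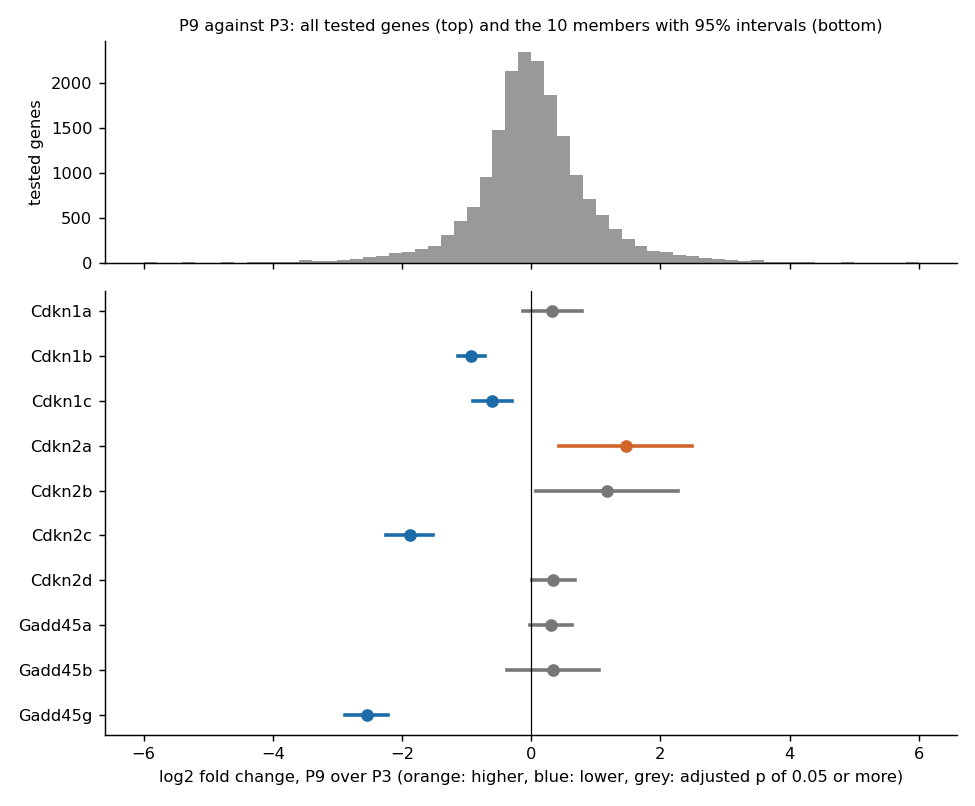
The upper panel counts the 18638 tested genes by log2 fold change of P9 over P3, with values beyond 6 in the end bars. The lower panel gives the log2 fold change of each of the 10 genes with its 95% interval: 4 lie below 0 and were called lower, Cdkn2a was called higher, and 5 did not pass.

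Among the Cip/Kip inhibitors Cdkn1b and Cdkn1c fell, and Cdkn1a did not pass. The 250 bases before the annotated start are shown for Cdkn1b, which fell, and for the upstream start of Cdkn1a, which did not pass. Capitals mark letters searched on both strands: TTTCCCGC and TTTGGCGC for E2F, the box spelled CCAAT, the GC box spelled GGGCGG, the box spelled TATAAA, and the p53 half-site. Sequences come from RefSeq (GRCm38.p6, matching the mm10 build of the counts); both are on the plus strand, at chr17:29090729-29090978 and chr6:134920151-134920400.
Cdkn1a: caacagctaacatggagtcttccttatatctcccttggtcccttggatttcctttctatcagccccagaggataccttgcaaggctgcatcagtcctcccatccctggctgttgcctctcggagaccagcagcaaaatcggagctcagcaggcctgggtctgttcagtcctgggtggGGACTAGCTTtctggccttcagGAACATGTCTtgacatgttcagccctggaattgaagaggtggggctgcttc
Cdkn1b: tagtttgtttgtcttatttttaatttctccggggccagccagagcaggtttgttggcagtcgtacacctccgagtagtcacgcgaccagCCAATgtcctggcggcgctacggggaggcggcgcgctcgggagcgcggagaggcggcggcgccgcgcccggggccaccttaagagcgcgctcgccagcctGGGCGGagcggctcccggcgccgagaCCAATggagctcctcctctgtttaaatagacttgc
The Cdkn1a window held p53 half-sites with their first letters 73 and 51 bases before the start, and none of the other letters. The window of the downstream Cdkn1a start, not shown, held GC boxes at 104 and 46 bases and no p53 half-site. The Cdkn1b window held CCAAT at 161 and 35 bases and a GC box at 61 bases before the start. No motifs overlapped in the windows shown. Of 32851 windows of this length in the table, 7.13% held a p53 half-site, 33.8% CCAAT, 32.7% a GC box, 12.4% TATAAA, 0.895% TTTCCCGC and 0.417% TTTGGCGC. The table had windows for 9 of the 10 genes, 12 in all; Cdkn1c was not among them.

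Cdkn1b (ENSMUSG00000003031.14, chromosome 6, 134920401 to 134925525), which encodes Kip1, the inhibitor that holds Cdk2 inactive in resting cells, ran from 141 to 197 CPM at P3 (median 166) and from 76.2 to 104 CPM at P9 (median 86.2). Every P3 library lay above every P9 library. The means were 168 ± 22.3 and 88.3 ± 9.49 CPM (SD of 6 libraries each; log2 fold change -0.93 ± 0.098, SE; edgeR adjusted p = 2.28e-06). Between 2849 and 6546 counts per library stood behind these values.

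Cdkn1c (ENSMUSG00000037664.13, chromosome 7, 143458339 to 143461059) encodes Kip2, an imprinted inhibitor expressed from the maternal allele and active in differentiating cells of embryo, lens and retina. Its 6 values ran from 41.0 to 57.0 CPM at P3 (median 50.6) and from 26.9 to 49.4 CPM at P9 (median 29.6). The ages overlapped through P9 replicate 3 alone, at 49.4 CPM, while the other P9 libraries ended at 32.9 CPM. The fold change was -0.60 ± 0.14 on the log2 scale (SE; edgeR adjusted p = 0.00223), and -0.76 without P9 replicate 3 (adjusted p = 2.73e-05). That library also had the highest summed proliferation markers of P9 (360 CPM, the others 192 to 322), the highest progenitor sum (1362 CPM) and the lowest rod sum (7822 CPM). The part of these cells in its Cdkn1c level was not tested.

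Cdkn1a (ENSMUSG00000023067.13, chromosome 17, 29090979 to 29100722), which encodes the inhibitor Cip1, a classical p53 target, ran from 4.21 to 9.94 CPM at P3 (median 8.23) and from 6.97 to 12.8 CPM at P9 (median 9.68). The ages overlapped, and P3 replicate 6 was lowest. Its log2 fold change was 0.32 with a 95% interval from -0.13 to 0.78 (edgeR adjusted p = 0.219), which holds both a rise and a small fall.

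The Ink4 inhibitors split in direction: Cdkn2c fell, Cdkn2a rose from a very low level, and Cdkn2b and Cdkn2d did not pass. The window of Cdkn2c before its outer start (minus strand, chr4:109666757-109667006, RefSeq, GRCm38.p6) is shown because this gene fell most in its family. Capitals mark the same letters as above.
Cdkn2c: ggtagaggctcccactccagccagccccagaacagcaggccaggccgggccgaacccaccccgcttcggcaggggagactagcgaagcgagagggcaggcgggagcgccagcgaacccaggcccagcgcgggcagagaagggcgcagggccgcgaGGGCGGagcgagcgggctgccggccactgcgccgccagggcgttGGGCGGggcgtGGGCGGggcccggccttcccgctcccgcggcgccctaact
The window held 3 GC boxes, at 95, 51 and 40 bases before the start, and neither of the E2F letter strings searched. Among all 12 windows of these genes TTTCCCGC occurred in 1, that of the outer start of Cdkn2a, 99 bases before it.

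Cdkn2c (ENSMUSG00000028551.14, chromosome 4, 109660876 to 109666756) encodes Ink4c, an inhibitor made in cycling precursor cells as well as in differentiating ones. It ran from 13.3 to 22.4 CPM at P3 (median 17.95) and from 3.32 to 5.61 CPM at P9 (median 5.09), with no overlap. The means were 17.6 ± 3.55 and 4.77 ± 0.943 CPM (SD of 6 libraries each; log2 fold change -1.88 ± 0.17, SE; edgeR adjusted p = 5.20e-07). The lowest P3 values were 13.8 CPM in replicate 4 and 13.3 in replicate 5. Those libraries also had the lowest summed proliferation markers of P3, 1468 and 1463 CPM, against 3269 to 5974 CPM in the other P3 libraries. Their retinal progenitor sums were the lowest of P3 too (1533 and 1558 CPM, the others 1573 to 1850). So were their progenitor means of log2(CPM + 1), at 5.82 and 5.72 (the others 5.95 to 6.07). Replicates 4 and 5 also had the highest pericyte sums of P3 (1224 and 1351 CPM, the others 367 to 689) and the highest rod sums (2955 and 2727 CPM, the others 1332 to 1900). Their sums were likewise the highest of P3 for Müller glia, astrocyte, bipolar and endothelial markers and for immediate early and heat shock genes. As a mean of log2(CPM + 1), this held among these lists for Müller glia and bipolar markers only. Endothelial means were 3.22 and 3.07 in replicates 4 and 5, against 3.86 in replicate 1. Astrocyte means were 4.19 and 4.27, against 4.39 in replicate 2. Means of immediate early and heat shock genes were 3.27 and 3.16, against 3.38 in replicate 1. The part of any of these cells in the Cdkn2c level was not tested.

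Cdkn2d (ENSMUSG00000096472.2, chromosome 9, 21288459 to 21291421), which encodes Ink4d, an inhibitor that keeps neurons out of the cycle together with Kip1, ran from 8.75 to 14.9 CPM at P3 (median 12.3) and from 12.8 to 20.8 CPM at P9 (median 14.1). The ages overlapped, and P9 replicate 1 was highest. The log2 fold change was 0.34 (95% interval 0.0083 to 0.68, edgeR adjusted p = 0.0804). Cdkn2d did not pass in 23 of 24 alternatives. The exception left out P3 replicate 6 (0.41, edgeR adjusted p = 0.0474), while leaving out P9 replicate 1 gave 0.24 (0.208).

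Cdkn2a (ENSMUSG00000044303.6, chromosome 4, 89274473 to 89294619) encodes the senescence inhibitor Ink4a and, in another reading frame, Arf, which stabilises p53. Counts per gene do not tell their transcripts apart. It ran from 0.241 to 0.955 CPM at P3 (median 0.566) and from 0.543 to 2.75 CPM at P9 (median 1.14), which is 7 to 31 counts per library at P3 and 18 to 106 at P9. P9 replicates 2 and 3 stood highest, at 2.75 and 2.57 CPM, and the lower P9 libraries overlapped with P3. The log2 fold change was 1.47 ± 0.48 (SE, n = 6 per age; edgeR adjusted p = 0.0191). Leaving out P9 replicate 2 ended the call (edgeR adjusted p = 0.0582), as did leaving out P9 replicate 3 (0.0541). P9 replicates 2 and 3 also had the highest summed pericyte, lens and erythroid markers of P9, with 6392 and 4706 CPM for pericytes, 1016 and 298 CPM for lens, and 1586 and 588 CPM for erythroid cells. Their proliferation sums (322 and 360 CPM, the others 192 to 281) and fibroblast sums (214 and 248 CPM, the others 134 to 169) were the highest of P9 as well. The part of these cells in the Cdkn2a level was not tested.

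Cdkn2b (ENSMUSG00000073802.4, chromosome 4, 89306289 to 89311032) lies 11670 bases from Cdkn2a and encodes Ink4b, an inhibitor induced by TGF-beta. It ran from 0.0308 to 0.475 CPM at P3 (median 0.373) and from 0.431 to 1.44 CPM at P9 (median 0.669). It rested on 1 to 16 counts per library at P3 and 14 to 50 at P9, and P9 replicate 1 was highest. The ages overlapped, and its log2 fold change was 1.18 (95% interval 0.075 to 2.28; edgeR adjusted p = 0.0693). The noncoding gene Gm12610 overlaps it and was at 0 to 0.310 CPM at P3 and at 0 in every P9 library.

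Among the Gadd45 genes Gadd45g fell, and Gadd45a and Gadd45b did not pass. Their windows are shown together to set the gene that fell beside its family members. Gadd45a is on the minus strand (chr6:67037408-67037657), Gadd45b (chr10:80929841-80930090) and Gadd45g (chr13:51846425-51846674) are on the plus strand, and build, source and capitals are as above.
Gadd45a: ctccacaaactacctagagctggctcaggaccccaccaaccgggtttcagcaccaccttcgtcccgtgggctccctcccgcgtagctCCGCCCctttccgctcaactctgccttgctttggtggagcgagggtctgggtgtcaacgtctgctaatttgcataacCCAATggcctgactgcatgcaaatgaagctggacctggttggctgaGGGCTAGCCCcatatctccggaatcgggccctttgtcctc
Gadd45b: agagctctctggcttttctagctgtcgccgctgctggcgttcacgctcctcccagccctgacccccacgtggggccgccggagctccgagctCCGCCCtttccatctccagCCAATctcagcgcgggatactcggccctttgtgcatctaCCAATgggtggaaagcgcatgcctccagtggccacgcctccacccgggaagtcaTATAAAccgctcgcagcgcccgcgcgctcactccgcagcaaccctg
Gadd45g: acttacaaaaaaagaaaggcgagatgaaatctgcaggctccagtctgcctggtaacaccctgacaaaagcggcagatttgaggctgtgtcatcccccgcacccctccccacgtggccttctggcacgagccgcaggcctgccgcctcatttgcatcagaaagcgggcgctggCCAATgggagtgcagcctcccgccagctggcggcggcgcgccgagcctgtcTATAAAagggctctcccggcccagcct
TATAAA stood 27 bases before the start in Gadd45g and 46 bases before it in Gadd45b, and it was absent from the Gadd45a window. CCAAT was found in all 3 windows, at 78 bases in Gadd45g, at 139 and 100 in Gadd45b and at 86 in Gadd45a. The Gadd45a window also held a p53 half-site at 40 bases, and those of Gadd45a and Gadd45b a GC box on the other strand at 163 and 158 bases.

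Gadd45g (ENSMUSG00000021453.2, chromosome 13, 51846675 to 51848475), a growth arrest gene switched on as neural precursors leave the cycle, ran from 39.9 to 58.6 CPM at P3 (median 50.4) and from 5.53 to 11.1 CPM at P9 (median 8.88). Every P3 library lay above every P9 library by a wide margin. The means were 49.9 ± 6.97 and 8.53 ± 2.06 CPM (SD of 6 libraries each; log2 fold change -2.55 ± 0.16, SE; edgeR adjusted p = 2.97e-08). By p-value Gadd45g ranked 67 among the 18638 tested genes, Cdkn2c 575 and Cdkn1b 1024.

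Gadd45a (ENSMUSG00000036390.8, chromosome 6, 67035096 to 67037407), a DNA damage gene controlled by p53, ran from 10.4 to 16.8 CPM at P3 (median 14.8) and from 13.6 to 24.3 CPM at P9 (median 17.4), with overlap. Its log2 fold change was 0.31 (95% interval -0.017 to 0.64; edgeR adjusted p = 0.104). The noncoding gene E230016M11Rik (chromosome 6, 67036599 to 67080652) overlaps it and rose from 17.4 ± 2.56 to 41.1 ± 2.99 CPM (SD of 6 libraries each; log2 fold change 1.24; adjusted p = 2.36e-07). In 11 of 12 libraries the expected count of Gadd45a was not a whole number, against 0 to 3 libraries for the other members, so some of its reads had been divided among genes by the counting model. The sources used here do not say how strand entered the counting, so reads of this pair may not be fully told apart.

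Gadd45b (ENSMUSG00000015312.9, chromosome 10, 80930091 to 80932204), a member induced by TGF-beta and by inflammatory signals, ran from 1.39 to 3.79 CPM at P3 (median 1.97) and from 1.09 to 4.44 CPM at P9 (median 3.10). The lowest value of all belonged to P9 replicate 6 and the highest to P9 replicate 2. The log2 fold change was 0.34 with a wide interval, -0.37 to 1.05 (edgeR adjusted p = 0.416), on 36 to 171 counts per library.

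The spread between libraries of an age also differed between genes. At P3 the SD was 13.0% of the mean for Cdkn1c, 13.3% for Cdkn1b and 14.0% for Gadd45g, against 42.1% for Gadd45b and 48.7% for Cdkn2a. Gadd45b, Cdkn2a and Cdkn2b had the widest spread at P3 and the fewest counts.

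Whether members of a family differed in response was tested on the ratio of 2 genes within each library, 10 ratios in all, with an exact two-sided permutation test over the 12 libraries (smallest possible p = 0.00216) adjusted over the ratios. Only changes of a ratio are read, since its size depends on transcript length. Gadd45a relative to Gadd45g rose by 2.79 on the log2 scale, from -1.78 ± 0.34 to 1.01 ± 0.52 (SD, n = 6 per age; exact permutation adjusted p = 0.00271). Gadd45b relative to Gadd45g rose by 2.78, from -4.19 ± 0.56 to -1.40 ± 0.78, with the same adjusted p. Gadd45a relative to Gadd45b was 2.41 ± 0.47 at P3 and 2.42 ± 0.79 at P9, a difference of 0.0090 (exact permutation adjusted p = 0.987). In the Ink4 family Cdkn2c relative to Cdkn2d fell by 2.12, from 0.53 ± 0.31 to -1.58 ± 0.30 (exact permutation adjusted p = 0.00271). In the Cip/Kip family Cdkn1a rose relative to Cdkn1b by 1.24 and relative to Cdkn1c by 0.94 (the same adjusted p), although Cdkn1a itself did not pass. Cdkn1b relative to Cdkn1c was 1.74 ± 0.34 and 1.44 ± 0.31, with overlap (exact permutation adjusted p = 0.171).

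Inhibitors were also set against a kinase they bind. Cdkn1b relative to Cdk2 rose by 1.33 on the log2 scale, from 1.37 ± 0.49 to 2.70 ± 0.29 (SD, n = 6 per age; exact permutation adjusted p = 0.00271). Cdkn2d relative to Cdk4 rose by 1.27, from -4.38 ± 0.30 to -3.11 ± 0.29, whereas Cdkn2c relative to Cdk4 fell by 0.85, from -3.84 ± 0.14 to -4.69 ± 0.30, both with the same adjusted p. The ages did not overlap in any of these 3 ratios. Both kinases fell themselves. Cdk4 went from 257 ± 35.3 to 135 ± 22.1 CPM (SD of 6 libraries each, log2 fold change -0.93, edgeR adjusted p = 1.24e-05). The log2 fold change of Cdk2 was -2.33. Cdkn2d alone did not pass, and Cdkn1b alone fell, so these ratios also carry the fall of the kinase.

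**Figure D3:**
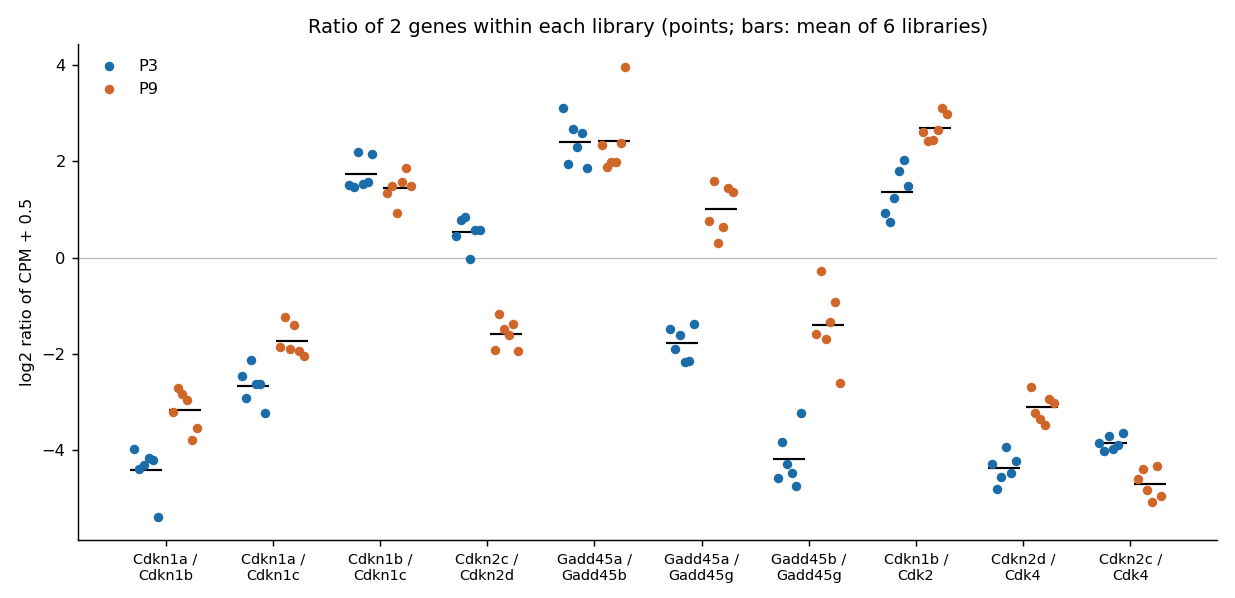
Log2 ratio of the CPM (plus 0.5) of 2 genes in each library (points; blue P3, orange P9; bars mark the mean of 6 libraries) for the 10 ratios tested. The ages separate in 8 ratios and overlap for Cdkn1b relative to Cdkn1c and Gadd45a relative to Gadd45b.

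Of 12 listed kinases and cyclins that the inhibitors act on, 10 fell, 1 rose and 1 did not pass (median log2 fold change -1.31). Of all tested genes 26.1% were called higher and 25.6% lower at P9, the background for the counts of this and the following lists. Ccnd1, the main D cyclin of retinal progenitors, fell from 930 ± 223 to 81.2 ± 30.6 CPM (SD of 6 libraries each), Cdk2 from 67.2 ± 20.5 to 13.3 ± 2.25 CPM, and Ccnb1, the mitotic cyclin, from 59.8 ± 18.7 to 9.24 ± 3.73 CPM. Cdk6 fell from 104 ± 11.5 to 63.0 ± 5.44 CPM. The member that rose was Ccnd3, another D cyclin, from 25.5 ± 3.17 to 41.2 ± 4.57 CPM; it was named after its value was seen.

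Among 14 pocket protein and E2F genes 9 fell, 2 rose and 3 did not pass (median log2 fold change -0.60). The activator E2f1 was 12.3-fold lower at P9, the repressors E2f8 and E2f7 8.44-fold and 5.86-fold lower, and the E2F partner Tfdp2 3.07-fold lower (edgeR adjusted p of 4.03e-08, 2.45e-07, 4.58e-07 and 1.20e-08). The members that rose were Rbl2, the pocket protein of resting cells, from 51.9 ± 2.71 to 63.3 ± 3.73 CPM, and E2f3 from 31.8 ± 3.56 to 64.5 ± 8.96 CPM (SD of 6 libraries each); both were named after their values were seen.

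Cdkn1a and Gadd45a are targets of p53. Of 21 listed genes of the p53 circuit 5 rose, 6 fell and 10 did not pass (median log2 fold change -0.050). These shares lie near those of all tested genes, 26.1% higher and 25.6% lower. The stress sensor gene Sesn2 rose 2.17-fold, the kinase gene Plk2 1.75-fold and the cyclin gene Ccng1 1.71-fold, while the p53 inhibitor gene Mdm4 was 1.59-fold lower at P9 (edgeR adjusted p of 5.09e-06, 6.46e-06, 7.59e-05 and 1.58e-05). Trp53, the p53 gene itself, fell from 90.4 ± 7.23 to 58.6 ± 9.07 CPM (SD of 6 libraries each, edgeR adjusted p = 8.78e-05). The listed target Btg2 was 1.65-fold lower at P9. Both were named after their values were seen.

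Genes known to set the level of these inhibitors mostly fell, 15 of 24, with 5 rising and 4 not passing (median log2 fold change -0.70). Dtl, the receptor of the ubiquitin ligase that degrades Cip1 in S phase, was 8.06-fold lower, and Foxo4, a transcription factor gene whose product activates Cdkn1b, 2.45-fold lower. Prox1, a transcription factor of cell cycle exit that is also on the horizontal cell list, went up from 180 ± 26.6 to 426 ± 50.3 CPM (SD of 6 libraries each; edgeR adjusted p = 4.25e-07).

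Of 17 partners of Gadd45 in stress kinase signalling and DNA repair, 2 rose, 6 fell and 9 did not pass (median log2 fold change -0.17). The JNK genes Mapk10 and Mapk8 rose 1.71-fold and 1.44-fold, and Pcna, the sliding clamp that Gadd45 proteins bind, and Apex1, a repair endonuclease, were 1.72-fold and 1.78-fold lower. Map3k4 itself was at 74.6 ± 8.31 and 68.3 ± 4.25 CPM (SD of 6 libraries each; edgeR adjusted p = 0.203); it was named after its value was seen. Of 17 other antiproliferative genes 6 rose, 5 fell and 6 did not pass (median log2 fold change -0.089), against 26.1% higher and 25.6% lower among all tested genes. Gas6, a gene named for growth arrest, rose 2.45-fold and Cables2, a Cdk-binding protein, 1.61-fold. Ing4, a chromatin reader, and Pa2g4, an ErbB3-binding protein, were 1.81-fold and 1.38-fold lower.

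Of 18 nearest protein-coding neighbours that are not members, 5 rose (Apold1, Gng12, Serbp1, Gng7 and Diras2), 4 fell (Srsf3, Kri1, Lmnb2 and Sema4d), 5 did not pass (Rab44, Gpr19, Kcnq1, Mtap and Faf1) and 4 were too low to test (Slc22a18, Dmrta1, 4930522H14Rik and Ap1m2). Among all tested genes 26.1% were called higher and 25.6% lower. The Cdkn1b neighbour Apold1, an endothelial gene 56476 bases away, rose from 4.83 ± 1.80 to 18.8 ± 6.08 CPM (SD of 6 libraries each), and Gpr19 on the other side was at 9.59 ± 2.24 and 8.51 ± 1.62 CPM (edgeR adjusted p = 0.438). Next to Gadd45g, Sema4d fell from 77.2 ± 8.87 to 37.6 ± 2.36 CPM and Diras2 rose from 59.1 ± 13.7 to 104 ± 9.67 CPM. Faf1, 9871 bases from Cdkn2c, was at 56.1 ± 6.22 and 61.5 ± 2.40 CPM (edgeR adjusted p = 0.160) while Cdkn2c fell.

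Profiles most like those of the leading member of each family were sought among 10962 other genes that averaged 10 CPM or more, by the root mean square difference of centred log2 CPM over the 12 libraries. Closest to Gadd45g were Mir9-3hg (0.27), the receptor gene Notch1 (0.27) and the Hes family gene Hes6 (0.27). Closest to Cdkn2c were BC055324 (0.17), AC153546.1 (0.18) and Cdc25b, a phosphatase that activates Cdk1 (0.18). Closest to Cdkn1b were Hmgb1, a chromatin protein (0.10), the repressor gene Zbtb18 (0.12) and 4930516B21Rik (0.12). These are descriptions over the 12 libraries, and the difference between the ages makes up much of each profile.

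Markers of other cells moved with age in the same libraries. All 14 proliferation markers fell, and their sum ran from 1463 to 5974 CPM at P3 and from 192 to 360 at P9. Of 13 retinal progenitor markers 12 fell and 1 rose (1533 to 1850 against 1196 to 1362 CPM), and all 12 lens markers fell (4524 to 11474 against 46.9 to 1016 CPM). All 10 rod markers rose (1332 to 2955 against 7822 to 15701 CPM), and 9 of 10 bipolar markers rose and 1 fell (1096 to 1288 against 1889 to 2648 CPM). The bipolar sum at P3 was mostly Otx2, the marker that fell, at 1033 and 490 CPM on average. Grm6, on the same list, rose from 1.54 to 552 CPM. Of 9 amacrine markers 2 rose and 4 fell (1330 to 1792 against 928 to 1138 CPM), of 10 Müller glia markers 6 rose and 1 fell (1314 to 1856 against 1770 to 2401 CPM), and of 10 endothelial markers 6 rose and 1 fell (878 to 1041 against 712 to 818 CPM). The endothelial sum was mostly Kdr, at 926 and 603 CPM on average. The most abundant amacrine marker, Pax6, is also on the progenitor list and averaged 752 CPM at P3 and 352 CPM at P9. Of 5 tested horizontal cell markers 3 rose and 1 fell, of 8 ganglion cell markers 6 and 1, of 7 astrocyte markers 3 and 2, of 9 microglia markers 4 and none, of 7 tested fibroblast markers none and 2, and of 8 immediate early and heat shock genes 2 and 1. All 5 tested erythroid genes rose (18.8 to 88.2 against 160 to 1586 CPM). Which cells the inhibitor transcripts came from was not measured, and the part of these cells in the changes of the 10 genes was not tested.

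**Figure D4:**
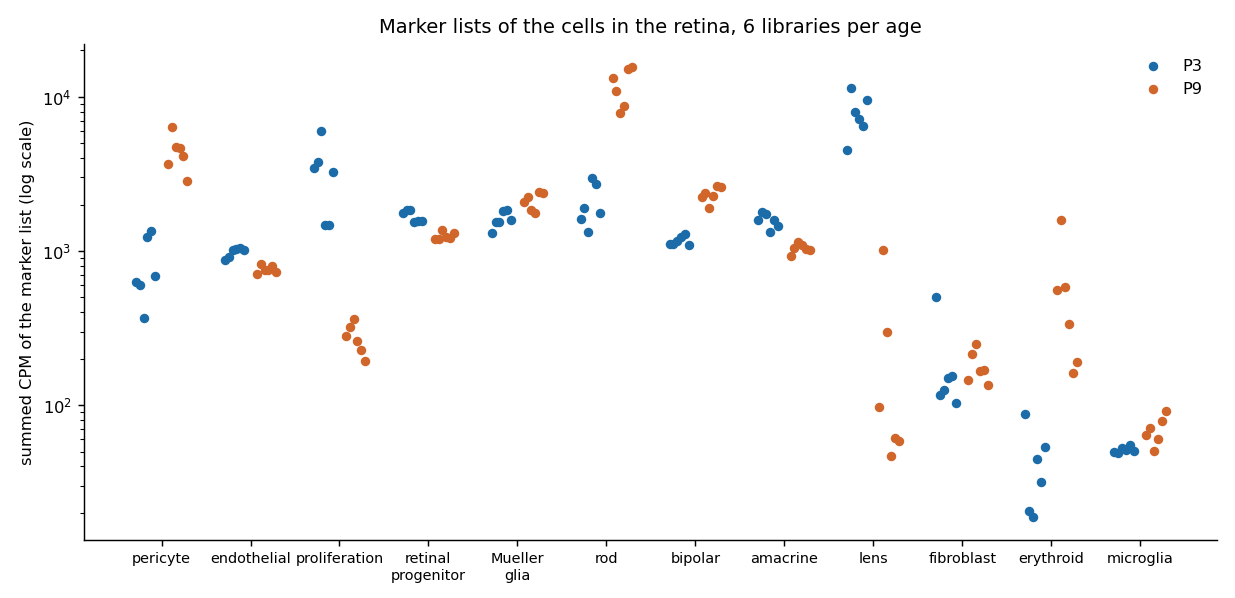
Summed CPM of 12 marker lists (log scale) in the 6 libraries of P3 (blue) and the 6 of P9 (orange). Pericyte and rod sums are higher at P9 in every library, while proliferation, progenitor and lens sums are lower.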

How the data were processed

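The authors deposited expected counts, unscaled estimates of the reads of each gene (per the file headers); 15.9% are not whole. The build mm10 and the tools STAR, RSEM, Trim Galore, FastQC and limma stand in the submitters' processing notes, without versions or roles. Counts were rounded, low genes removed by filterByExpr, libraries scaled by TMM, and P9 compared with P3 in edgeR 4.0.16 (R 4.3.3) by its quasi-likelihood test, which was tested on simulated data. CPM are TMM-scaled; ratios used CPM + 0.5 and profiles log2 CPM with a prior count of 2. Replicates were numbered in deposition order; P9 replicates 5 and 6 carry crossed names, both of P9.

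The 10 genes, the lists, ratios and motifs were chosen with earlier results of these data known. Named were the 10 genes, up to 4 called genes with the smallest adjusted p per pathway list, the closest profiles, the nearest protein-coding neighbours and, for cell lists, the 2 most abundant markers, of which only those a sum turns on are printed. A gene that the rule names is not reported here. Other retinal markers are given as sums. Alternatives were other factors, filters, DESeq2 1.42.0, limma-voom 3.58.1, a robust fit, a threshold of 0.01, other pseudocounts and libraries left out. Promoter windows came from a RefSeq table; transcript lengths were not used here, so levels of different genes were not compared.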

Additional observations from a re-analysis of the deposited data

Results flagged for a closer look

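Of 72 groups of 6 values checked, 7 held a library whose gap to its nearest neighbour was large for the range of the group. For independent, normally distributed values chance alone gives about 1 in 20. These groups share libraries and genes, so that rate need not hold for them. Cdkn1c stood at 49.4 CPM in P9 replicate 3 (nearest other 32.9 CPM) and Cdkn2b at 1.44 CPM in P9 replicate 1 (nearest other 0.805 CPM). The log2 ratio of Cdkn1a to Cdkn1b was -5.39 in P3 replicate 6 (nearest other -4.40), and that of Gadd45a to Gadd45b was 3.96 in P9 replicate 6 (nearest other 2.37). Summed lens markers reached 1016 CPM in P9 replicate 2 (nearest other 298) and summed erythroid markers 1586 CPM in the same library (nearest other 588). Summed fibroblast markers reached 499 CPM in P3 replicate 1 (nearest other 154).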

How the results depend on the processing

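The falls of Cdkn1b, Cdkn1c, Cdkn2c and Gadd45g passed under all 24 alternatives run, with log2 fold changes of -0.98 to -0.87, -0.76 to -0.53, -2.04 to -1.80 and -2.64 to -2.45. The number of these genes called higher, 1 as reported, was 0 with a mean of at least 10 CPM, where Cdkn2a was not tested, 0 at an adjusted p under 0.01, and 0 to 2 with each library left out. Across all genes 3479 to 5113 were called higher and 3584 to 5062 lower. The ratio of Gadd45a to Gadd45b, near 0 as reported, changed sign to -0.022 with a pseudocount of 0.1 CPM and to -0.37 without P9 replicates 5 and 6, and ran from -0.30 to 0.15 with each library left out; it did not pass in any of these. The other 9 ratios had the same direction and side of the threshold in all 16 alternatives. As a mean of log2(CPM + 1) instead of a sum, the change of the marker lists from P3 to P9 was -2.48 for proliferation, -1.74 for progenitors, 0.70 for Müller glia, 3.04 for rods, 3.47 for bipolar cells, -0.20 for amacrine cells, 0.63 for horizontal cells, 0.73 for ganglion cells, 2.20 for erythroid cells and 0.42 for immediate early and heat shock genes. For endothelial cells it was 1.15, whereas their sum fell. That sum was mostly Kdr, at 926 and 603 CPM on average, while 6 of the 10 endothelial markers rose. What changed these markers was not tested. The fibroblast list also changed sign, from 0.12 as a difference of mean log2 sums to -0.20, within the spread of its libraries. Without logs its mean sum was 192 CPM at P3, where replicate 1 reached 499 CPM, and 180 CPM at P9. No paired analysis was possible because replicates carry numbers in deposition order alone. Cdkn2a and Cdkn2b rest on the fewest counts, and their intervals are the widest.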
